A study of Mus musculus with 5 samples.

Results

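Islets of mice lacking ATF6α in beta cells (ATF6a cKO) were set against islets of control mice (ATF6a Control) after high-fat feeding, using every cell of the 2 high-fat libraries: 2483 cKO and 6667 control cells, 9150 of the 18221 cells of the series. Control mice carried the floxed Atf6a alleles (Atf6afl/fl) without Cre. The cKO mice carried the same alleles with RIP-Cre, in which the rat insulin promoter drives the recombinase. Both genotypes received a diet with 60% of energy as fat from 6 weeks of age until islets were taken at 22 weeks. Each library pooled islets of 2 mice, and both libraries belonged to batch 1. The controls had no Cre, so loss of ATF6α and presence of Cre cannot be told apart. With 1 library a side, a difference between genotypes and one between preparations cannot be told apart either, and no p-value was computed.

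ATF6α is a membrane protein of the endoplasmic reticulum that, when unfolded proteins accumulate, moves to the Golgi, is cut there and releases a transcription factor that raises chaperones and degradation factors. Beta cells fold and secrete large amounts of proinsulin, and a high-fat diet raises the demand for insulin. Alpha cells secrete glucagon, delta cells somatostatin and PP cells pancreatic polypeptide. The rat insulin promoter is active mainly in beta cells, so the other islet types served as the reference for changes that were not particular to the cells expected to lose ATF6α.

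The deposited tables give each cell a library, one of 8 cell types, one of 14 clusters and 2 UMAP coordinates, its place in the embedding. Expression per gene was not analysed here, so the cell types could not be checked against their markers and recombination of Atf6a could not be checked. The sequencing depth and the UMI count of each cell are unknown here, and cell numbers set the precision. The high-fat libraries shared 24 cell barcodes. The cells behind them had the same type in 12 pairs, and the type shares of the libraries alone would give 14.95. Leaving these cells out moved none of the shares of cells recomputed without them beyond its counting interval. All intervals are exact 95% binomial intervals unless named otherwise and cover counting error only.

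The cluster makeup of the whole library differed throughout. A cluster was called lower or higher when the 95% counting interval of its log2 ratio of shares, cKO over control, excluded 0. Of 13 clusters with enough cells, 10 were called lower in the cKO library (76.9%) and 3 higher (23.1%). The clusters called higher were all beta clusters: cluster 9 at 19.5% of all cells against 0.870%, cluster 3 at 35.4% against 12.8%, and cluster 6 at 9.71% against 6.55%. Since shares of a library add up to a constant, 1 large cluster pulls the others down. Recounted over all cells other than cluster 9, 5 clusters were lower and 2 were higher. Beta clusters 1 and 5, alpha clusters 2 and 8 and the neurons remained lower, and beta clusters 3 and 6 remained higher. Delta cells then stood at 6.40% against 6.57% (log2 ratio -0.04, -0.31 to 0.24) and beta cluster 7 at 12.96% against 12.6% (0.04, -0.15 to 0.23). Cluster 3 then held 44.0% against 12.9% and pulls the other shares down in the same way. Over non-beta cells alone, the log2 ratio of the neurons was -0.26 (-0.91 to 0.39), an interval that includes 0.

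The beta cells outside cluster 9 differed as well. Among the 1609 cKO and 4783 control beta cells outside cluster 9, cluster 3 held 54.6% (52.2 to 57.1%) of the cKO cells and 17.9% (16.8 to 19.0%) of the control cells. Its log2 ratio was 1.61 (1.503 to 1.72). Cluster 1, the most numerous control cluster, held 6.90% (5.71 to 8.25%) against 35.9% (34.6 to 37.3%), a log2 ratio of -2.38 (-2.65 to -2.12). Cluster 5 held 7.40% against 19.7%, cluster 6 held 14.98% against 9.14%, and cluster 7 held 16.1% against 17.4%. The interval of cluster 7 included 0 (log2 ratio -0.11, -0.30 to 0.07). Beta cells of the cKO library thus lay mainly in clusters 3 and 9, and those of the control library mainly in clusters 1, 5, 3 and 7.

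With beta cells taken out of the denominator, the libraries differed in alpha and delta cells. The cKO library had 390 non-beta cells and the control library 1826. Alpha cells were 32.3% (27.7 to 37.2%) of the cKO non-beta cells and 42.3% (40.1 to 44.6%) of the control ones, a log2 ratio of -0.39 (-0.61 to -0.17). Delta cells were 32.8% (28.2 to 37.7%) against 23.8% (21.8 to 25.8%), a log2 ratio of 0.47 (0.23 to 0.70). There were 0.984 cKO alpha cells per delta cell, against 1.78 in control islets. The log2 ratio of these ratios was -0.86 (-1.25 to -0.46). Shares of non-beta cells also add up to a constant, so the alpha and delta differences are not independent. Counted per immune cell, the log2 ratio was -0.54 (-1.01 to -0.07) for alpha cells and 0.31 (-0.17 to 0.79) for delta cells. Counted per PP cell, it was -0.46 (-1.07 to 0.15) and 0.39 (-0.22 to 1.01). Of these intervals, only that of alpha cells per immune cell excluded 0. On normal diet, alpha cells were 53.6% (51.9 to 55.2%) of control and 40.4% (37.0 to 43.9%) of batch 2 cKO non-beta cells. Delta cells were 26.3% (24.9 to 27.8%) and 37.4% (34.0 to 40.9%) of them. The alpha share thus also differed between the control libraries of both diets, at 53.6% and 42.3%.

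For the other non-beta types no difference was detectable at these cell numbers. PP cells were 8.46% against 8.05% of non-beta cells, and immune cells 17.2% against 15.4% (log2 ratio 0.15, -0.20 to 0.50). Endothelial cells, which line the islet capillaries, were 3.85% against 3.89%, and cells annotated as neurons 5.38% against 6.46%. The widest of these intervals, that of endothelial cells, ran from -0.80 to 0.77 on the log2 scale. The single acinar cell, an enzyme-secreting cell of the exocrine pancreas, was in the control library, and 0 of 390 cells in the cKO library allows up to 0.941%. Within alpha cells the split between the 2 alpha clusters was close, with cluster 2 at 69.0% (60.2 to 77.0%) of 126 cKO alpha cells and 68.2% (64.8 to 71.4%) of 773 control alpha cells.

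**Figure D1:**
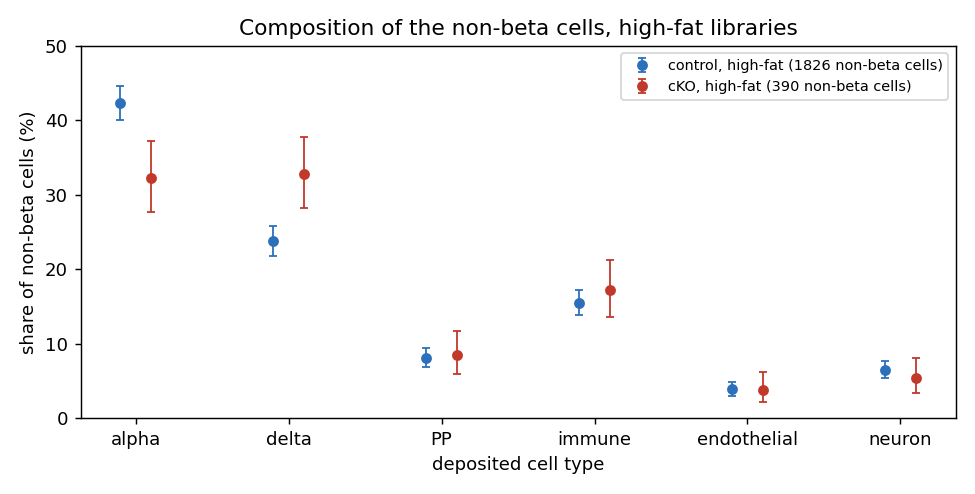
Share of non-beta cells (%, y axis) held by each deposited cell type (x axis) in the control and cKO high-fat libraries, with exact 95% binomial intervals. Alpha cells were 42.3% in the control and 32.3% in the cKO library, delta cells 23.8% and 32.8%, and the intervals of the 4 other types overlapped.

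Position was then compared within each type. The territory of a type was the part of the embedding close to control high-fat cells of that type: a cell was inside when its distance to the 5th nearest such cell was at or below the 95th percentile of that distance among the control cells themselves. By construction 5% of control high-fat cells lay outside. Of the cKO beta cells, 895 of 2093 lay outside the control beta territory, or 42.8% (40.6 to 44.9%). Among non-beta types the share was 7.94% (3.87 to 14.1%) of alpha cells, 5.47% (2.23 to 10.9%) of delta cells and 5.97% (1.65 to 14.6%) of immune cells. It was 1 of 33 PP cells (3.03%, 0.077 to 15.8%) and 0 of 15 endothelial cells, which allows up to 21.8%. Each of these 5 intervals includes the 5% of the controls, whereas that of beta cells does not. Other limits changed some of these readings. With the 90th percentile, which leaves 10% of controls outside, immune cells stood at 23.9% (14.3 to 35.9%). With the 99th, which leaves 1%, alpha cells stood at 3.97% (1.30 to 9.02%) and delta cells at 4.69% (1.74 to 9.92%). With the nearest control cell in place of the 5th, alpha cells stood at 11.9% (6.82 to 18.9%) and immune cells at 17.9% (9.61 to 29.2%), against 5% of controls.

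Neurons were the exception among the non-beta types. Of 21 cKO cells annotated as neurons, 6 lay outside the control territory, or 28.6% (11.3 to 52.2%), and 5 of the 21 had mostly cells of another type among their 10 nearest cells, against 1 of 118 control neurons. Alpha cells made up 23.8% of the neighbours of cKO neurons and 5.93% of those of control neurons. The share for neurons was the same with the 90th, 95th and 99th percentile as the limit. At the 99th percentile the beta share fell to 11.7%, below that of the neurons and still above the 5 other types, of which delta cells were highest.

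**Figure D2:**
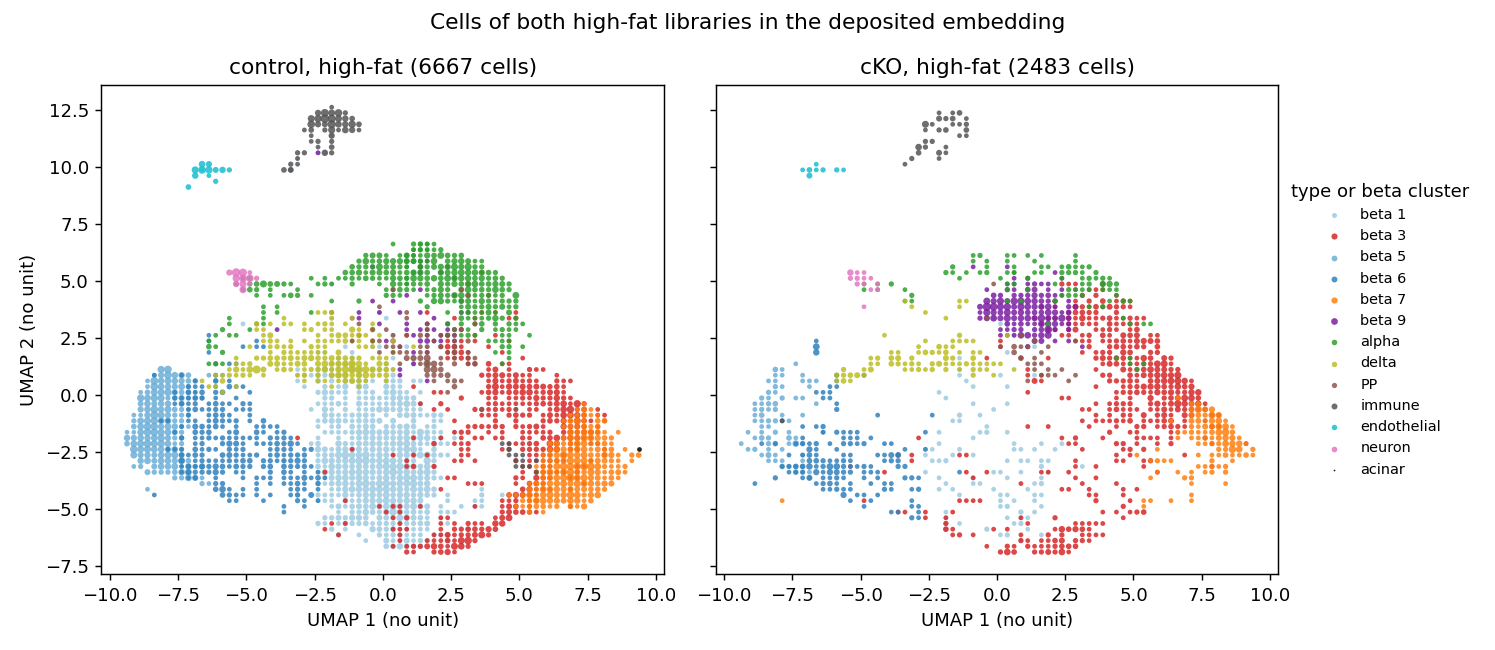
Positions of the cells of the control (left) and cKO (right) high-fat libraries in the deposited embedding, as bins 0.25 wide on both UMAP axes (no unit), with point size growing with the cells in a bin and colour giving the type or beta cluster; where bins coincide, later entries of the legend are on top. The control library fills the area of beta cluster 1, which held 111 cKO cells and 1718 control cells, and the cKO library has a dense group of 484 cluster 9 cells next to the alpha cells.

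The number of reference cells differed between types, and the distance limit ran from 0.139 units in the 118 control neurons and 0.390 in the 4841 control beta cells to 1.01 in the 147 control PP cells. The beta territory was therefore rebuilt from as few control beta cells as each other type had, spaced evenly in barcode order. This alternative was added after the data had been seen. The share of cKO beta cells outside was 41.7% with 773 reference cells, as for alpha cells, and 32.4% with 434, as for delta cells. With the numbers of PP, immune, endothelial and neuron cells it was 37.3%, 33.6%, 30.1% and 46.8%. All of these were above the share of the type concerned. Without cluster 9 these shares ranged from 13.4 to 38.2%. With the reference numbers of immune cells and of neurons they were then 13.4% and 14.5%, the first within the interval of the immune share and the second below the neuron share of 28.6%.

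Diet gave another pattern on the same reference. Control cells on normal diet (10% of energy as fat, 1 library, batch 1) lay outside the control high-fat territory in 24.2% (23.0 to 25.5%) of beta cells. Their non-beta cells were outside in 28.6% of alpha cells, 27.5% of delta cells, 45.4% of PP cells and 18.6% of immune cells. With the beta reference thinned to the numbers of alpha, delta and PP cells, the normal-diet beta share was 24.1%, 10.5% and 5.11%. With the numbers of immune and endothelial cells it was 11.2% and 2.09%, below the share of the type concerned. Diet in control mice thus went with a larger share outside in alpha, delta and PP cells than in beta cells. For immune and endothelial cells this held only with the thinned beta reference. Genotype on the high-fat diet went with a larger share in beta cells than in the 5 non-beta types other than neurons. Each contrast rests on 1 library a side, and the difference between them was not tested. They also share the control high-fat library.

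**Figure D3:**
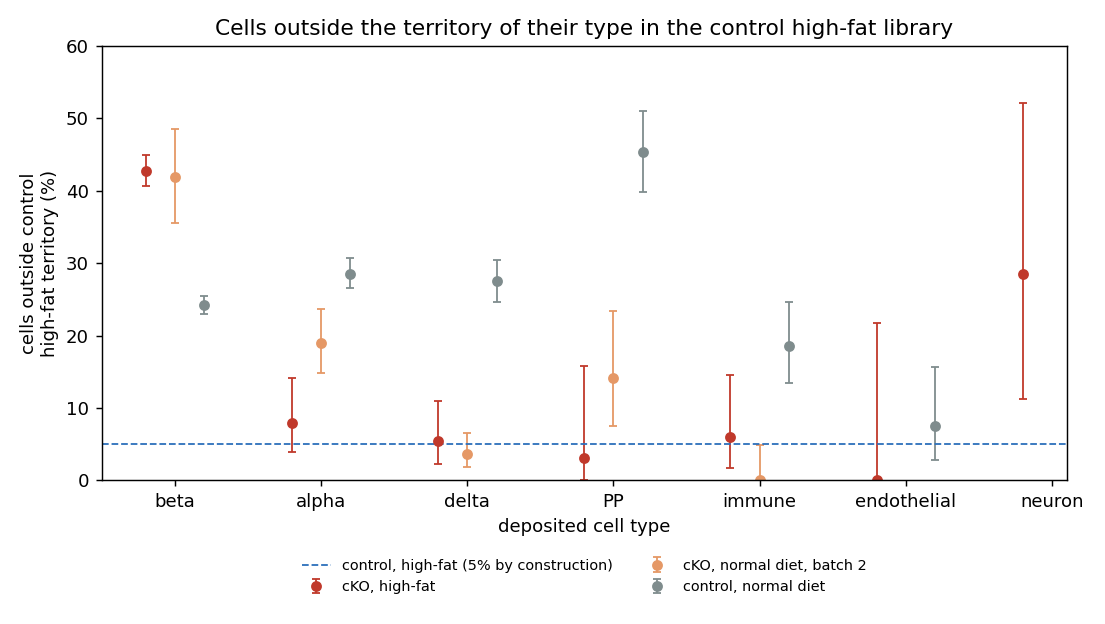
Share of cells (%, y axis) of each deposited type (x axis) outside the territory of that type in the control high-fat library, for the cKO high-fat, batch 2 cKO normal-diet and control normal-diet libraries, with exact 95% binomial intervals; the dashed line marks the 5% of the control high-fat library. The cKO high-fat beta cells stand at 42.8%, against 0 to 7.94% of the non-beta types other than neurons.

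The mixing of the libraries was measured from the 10 nearest cells of the same type in both high-fat libraries. The rates at which a cell had neighbours from either library, per available cell, were turned into a balanced share of own-library neighbours, where 50% means full mixing and 100% full separation whatever the cell numbers. For cKO beta cells it was 79.7%, and seen from the control beta cells it was 69.0%. For the other types, seen from the cKO cells, it ranged from 49.6% in neurons to 67.8% in immune cells, with alpha cells at 57.3%, delta cells at 61.0% and PP cells at 61.8%. Seen from the control cells, these 6 types ranged from 47.9% to 55.4%. With beta cells thinned to the cell numbers of each other type, the beta share was between 79.2 and 85.9%, above that type in each of the 6 comparisons. Between the diets in control mice the share seen from the high-fat cells was 64.5% for beta cells, between 63.0% for endothelial and 65.1% for alpha cells, with delta cells at 69.0%, immune cells at 72.1% and PP cells at 72.2%. Seen from the normal-diet cells the order was another one: beta cells at 64.8% were above alpha (56.9%), delta (58.9%), PP (60.2%) and endothelial cells (61.1%), and below immune cells (75.6%).

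Median positions ranked the types differently, depending on the scale. The median cKO beta cell lay 3.19 embedding units from the median control beta cell, against 0.066 to 0.849 units in the non-beta types. Divided by the median distance of control cells from their own median, the beta shift was 0.58. That was above alpha cells (0.23) and neurons (0.26), and below delta (0.69), immune (0.75), PP (0.94) and endothelial cells (1.02). Beta cells spread over the whole width of the embedding, with a median distance of 5.54 units in the control library, whereas this distance was 0.230 to 1.63 in the other types. The scaled shift alone therefore did not set beta cells apart.

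The mean shift of beta cells was split into a part from cluster shares and a part within clusters. The mean cKO beta cell was displaced by 3.06 units, of which 81.0% lay in other cluster shares and 19.0% in other positions within the clusters. The share outside the territory gave a like picture. Of the 895 outside cells, 48.3% were in cluster 9 and 41.6% in cluster 3. In cluster 9, 89.3% of cKO cells lay outside, but so did 45 of the 58 control cells (77.6%, 64.7 to 87.5%). The cells of cluster 9 thus lay mostly outside in both libraries, and the cKO library had more of them. In cluster 3, 42.3% of cKO cells and 9.01% (7.17 to 11.1%) of control cells lay outside. If the cKO beta cells had been spread over the clusters as the control cells were, 15.3% would have lain outside, compared with the observed 42.8%.

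Among the beta clusters, cluster 7 had the largest share outside the control territory of the own cluster. There 110 of 259 cKO cells of cluster 7 lay outside, or 42.5% (36.4 to 48.7%). The share was 59.5% with the 90th and 15.4% with the 99th percentile as the limit, in both cases the highest of the beta clusters. The distance limit differed between clusters, at 0.268 units in cluster 7, 0.613 in cluster 6 and 0.788 in cluster 3. Against the territory of all control beta cells, 38 of the 259 cells of cluster 7 lay outside (14.7%, 10.6 to 19.6%). That was below the 89.3% of cluster 9 and the 42.3% of cluster 3. The median of cluster 7 moved from 7.001 to 8.02 on UMAP 1 and from -3.26 to -1.72 on UMAP 2. Between the lower and upper quartile, UMAP 2 ran from -2.37 to -1.17 for cKO cells and from -3.99 to -2.55 for control cells, and these ranges did not overlap. The median shift was 1.68 times the spread of the control cells, and the balanced own-library share was 84.6%. In number, cluster 7 held 12.4% of all cKO beta cells and 17.2% of the control ones (log2 ratio -0.48, -0.66 to -0.29). That interval includes 0 only with cluster 9 left out, as given above.

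Cluster 3 differed in both number and position. Outside its control territory lay 216 of 879 cKO cells, or 24.6% (21.8 to 27.6%). At the 99th percentile as the limit 1.59% (0.873 to 2.66%) lay outside, and this interval includes the 1% of controls. The share of own-library neighbours was 66.2% seen from the cKO cells, within the range of the non-beta types. Seen from the control cells it was 67.7%, above the highest non-beta type (55.4%). The median on UMAP 1 was 4.86 for cKO and 4.90 for control cells, whereas on UMAP 2 it was 0.27 and -1.61. For each cell the nearest cell of any other cluster was looked up among all libraries. It belonged to alpha cluster 2 for 483 of 879 cKO cells (54.9%, 51.6 to 58.3%) and for 151 of 855 control cells (17.7%, 15.2 to 20.4%). For the control cells of cluster 3, beta cluster 7 came first at 33.5%.

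Clusters 1, 5 and 6 were displaced less. Outside the control territory of the own cluster lay 9.01% (4.41 to 15.9%) of the 111 cKO cells of cluster 1, 14.3% (8.55 to 21.9%) of 119 in cluster 5 and 14.1% (9.97 to 19.2%) of 241 in cluster 6. The interval of cluster 1 includes 5% and those of clusters 5 and 6 do not. With the 90th percentile as the limit cluster 1 stood at 19.8% (12.9 to 28.5%), above the 10% of controls, and with the 99th at 5.41% (2.01 to 11.4%), above the 1%. At the 99th, cluster 5 stood at 4.20% (1.38 to 9.53%) and cluster 6 at 2.90% (1.18 to 5.89%). Clusters 1, 5 and 6 were then above cluster 3 (1.59%, 0.873 to 2.66%), the reverse of the order at the 95th, with overlapping intervals. Alpha cluster 2, a cluster outside the beta cells, had a share of like size, with 10 of 87 cKO cells outside (11.49%, 5.65 to 20.1%). The own-library neighbour shares of the cKO cells of beta clusters 1, 5 and 6 were 57.7%, 62.2% and 61.5%, within the range of the non-beta types. At the 95th percentile the few cKO cells of cluster 1 thus lay largely where control cells of that cluster lay, although this cluster had the lowest log2 ratio of shares.

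Cluster 9 held 484 cKO cells and 58 control cells. Against the control cells of the cluster 1 of 484 cKO cells lay outside (0.207%), but 58 scattered reference cells give a limit of 1.80 units, against 0.268 in cluster 7, so that this share says little. The cKO cells were packed more tightly, with a median distance of 0.996 units from their median, against 1.38 in the control cells. Among the 10 nearest cells of any library, those of another cell type were 22.2% for cKO cells and 54.1% for control cells of cluster 9. Of the control cells, 29 of 58 lay mostly among other types, against 55 of 484 cKO cells (11.4%). The cells called cluster 9 therefore formed a dense group among cKO cells and lay scattered between alpha, delta and PP cells among control cells. The larger number of cKO cells itself raises the share of same-type neighbours.

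**Figure D4:**
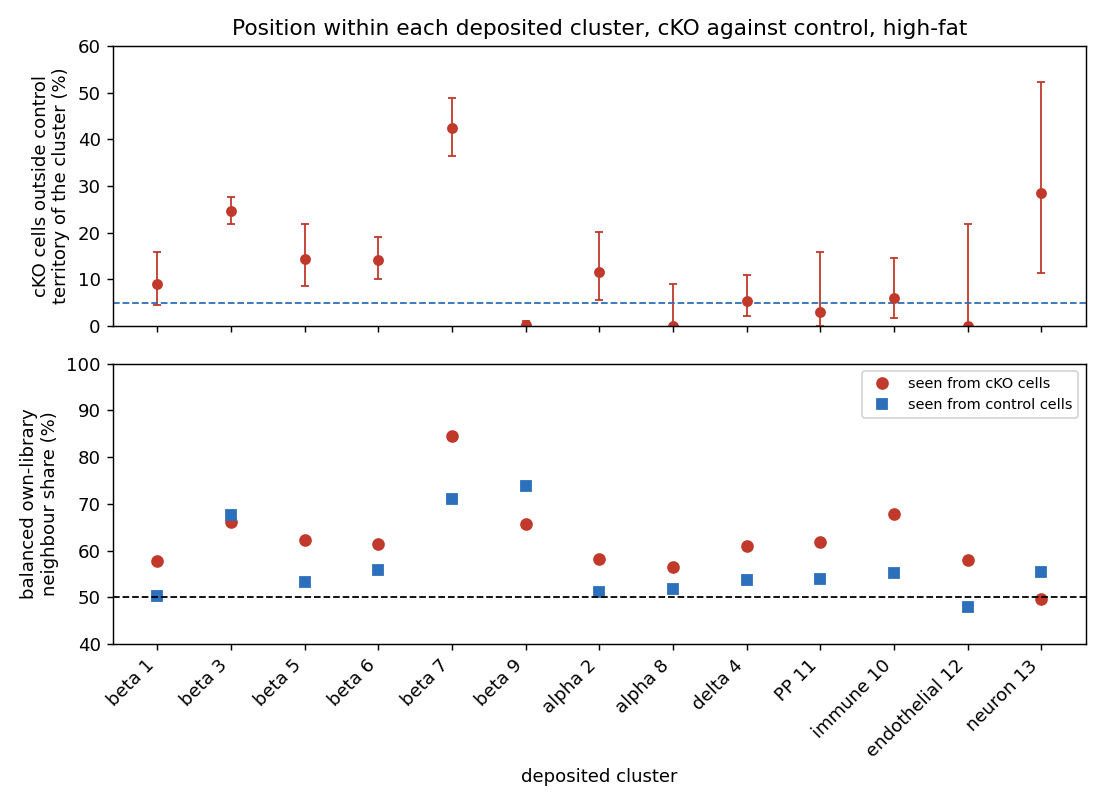
Top, share of cKO high-fat cells (%) outside the control high-fat territory of each deposited cluster, with exact 95% binomial intervals and the 5% of the controls dashed; bottom, balanced share of own-library neighbours (%) seen from cKO (circles) and control cells (squares), with full mixing at 50% dashed. Cluster 7 was highest in the top panel (42.5%) and, seen from cKO cells, in the bottom panel (84.6%).

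A larger share of beta cells lay in the alpha and PP areas in the cKO high-fat than in the control high-fat library. Inside the control alpha territory lay 273 of 2093 cKO beta cells (13.04%, 11.6 to 14.6%) and 40 of 4841 control beta cells (0.826%, 0.591 to 1.12%). Of these, 154 cKO cells and 17 control cells were of cluster 3, which is 17.5% (15.1 to 20.2%) and 1.99% (1.16 to 3.16%) of that cluster. Without cluster 9 the shares of beta cells inside the alpha territory were 9.63% and 0.439%. The PP territory, which had the widest limit of the types, held 15.6% of cKO and 2.21% of control beta cells. Of the 327 cKO cells there, 240 were of cluster 9. Within cluster 9, however, 49.6% of cKO and 63.8% of control cells lay in the PP territory, and 24.4% and 32.8% in the alpha territory. The intervals overlapped in both cases. For cluster 3 the PP shares were 8.99% and 6.08%, again with overlapping intervals. Without cluster 9 the PP shares of beta cells were 5.41% and 1.46%. Most cKO beta cells in the PP territory thus came with the larger number of cluster 9 cells, not with a larger share of that cluster. In the delta territory the share was lower in the cKO library, at 0.812% (0.474 to 1.30%) of cKO and 2.09% (1.70 to 2.53%) of control beta cells. Immune territory held 0.287% and 0.248%, and neither library had a beta cell in the neuron territory.

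Seen from the place rather than the annotation, the alpha area was not emptier in the cKO library. Cells of any type inside the control alpha territory were 16.2% (14.8 to 17.7%) of cKO cells and 12.7% (11.9 to 13.5%) of control cells. In the cKO library 116 of these 402 cells were annotated alpha and 273 beta, so that beta cells were 67.9% (63.1 to 72.5%) of them. In the control library 734 of 846 were alpha and 40 beta (4.73%, 3.40 to 6.38%). The PP area held 14.8% of the cKO and 4.68% of the control library, and the delta area 5.56% and 7.84%. Of the 273 cKO beta cells in the alpha area, 154 were of cluster 3 and 118 of cluster 9. The shares of these areas are of all cells of a library, not of non-beta cells. Whether the annotation of the cells in the alpha area bears on the lower alpha share of the cKO library was not tested. No doublets were called, as the tables hold no counts per gene.

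**Figure D5:**
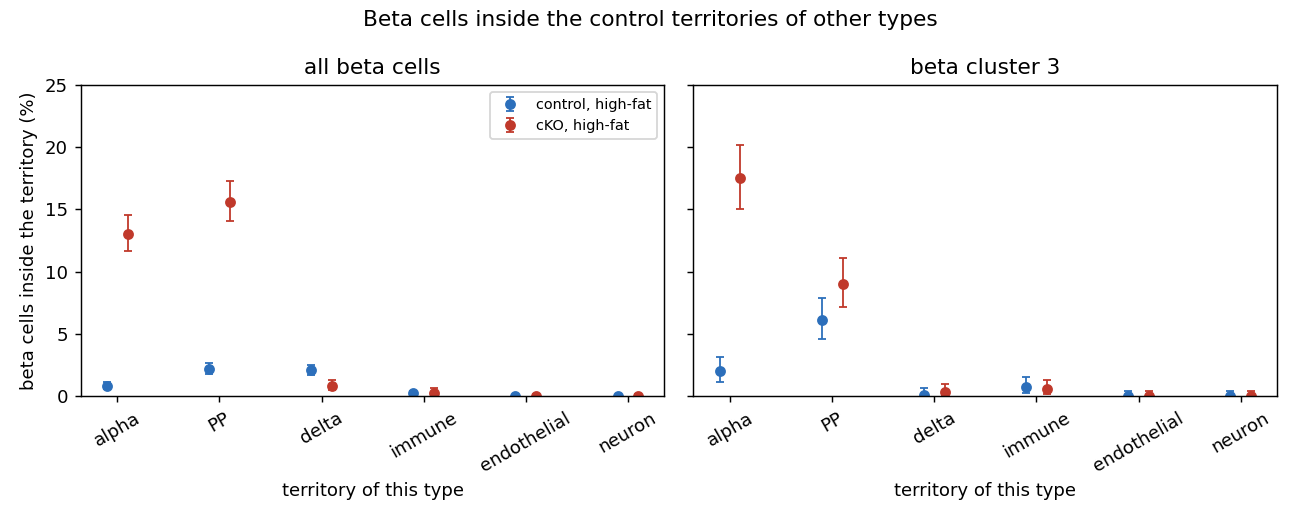
Share of beta cells (%, y axis) inside the control high-fat territory of each other type (x axis), for all beta cells (left) and beta cluster 3 (right) of the control and cKO high-fat libraries, with exact 95% binomial intervals. Inside the alpha territory lay 13.04% of cKO and 0.826% of control beta cells, and 17.5% and 1.99% of cluster 3.

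The same was seen from the neighbours. Of the cKO beta cells, 309 of 2093 (14.8%) had mostly cells of another type among their 10 nearest cells in the series, against 174 of 4841 control beta cells (3.59%). This share was 33.1% in the batch 2 cKO and 3.29% in the control normal-diet library. For cluster 3 it was 27.1% in the cKO and 6.55% in the control high-fat library. On normal diet, cluster 3 stood at 54.4% in the batch 2 cKO and 22.2% (16.2 to 29.2%) in the control library. Alpha cells made up 13.9% of the neighbours of cKO beta cells and 1.24% of those of control beta cells. Delta cells made up 1.91% and 1.89%. For alpha cells themselves the share lying mostly among other types was 1.59% in the cKO and 3.75% in the control library, and for delta cells 3.13% and 3.23%. Beta cells thus had a larger share of alpha neighbours in the cKO library, as did the 21 cells annotated as neurons, whereas alpha and delta cells did not lie more often among other types there.

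The batch 2 cKO normal-diet library (1033 cells, of which 236 beta) shares the genotype and differs in diet and batch. Of its beta cells 41.9% (35.6 to 48.5%) lay outside the control high-fat beta territory, against 42.8% in the cKO high-fat library. Its alpha cells were outside in 18.9%, its PP cells in 14.1%, its delta cells in 3.69% and its immune cells in 0 of 74. Against 3 references of 236 beta cells each, 24.7% (22.9 to 26.6%) of the cKO high-fat beta cells lay outside the territory of the cKO normal-diet library. The shares were 41.3% (39.2 to 43.4%) outside that of the control high-fat library and 61.9% (59.8 to 64.0%) outside that of the control normal-diet library. The balanced own-library share of cKO high-fat beta cells against the cKO normal-diet library was 58.7%, below the 79.7% against the control high-fat library of the same batch and diet. Seen from the partner library the order was reversed, at 78.0% from the cKO normal-diet cells and 69.0% from the control high-fat cells. The scaled median shift of cKO high-fat beta cells was 0.33 to the cKO normal-diet library and 0.58 to the control high-fat library, and without cluster 9 it was 0.80 and 0.76. The measures therefore did not give a single order of nearness between these libraries.

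The batch 1 cKO normal-diet library, of the same batch as both high-fat libraries, held 40 cells in all and no alpha, delta or PP cell, so it could not serve as a reference. Of its 31 beta cells 21 lay outside the control high-fat beta territory (67.7%, 48.6 to 83.3%), against 42.8% of the cKO high-fat beta cells. Cluster 5 held 21 of the 31, and each of these lay outside the control high-fat territory of that cluster.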

How the data were processed

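Single-cell RNA libraries (10x Genomics 5′ chemistry) were annotated by the authors before deposit. The submitters' processing notes name Cell Ranger 7.1.0 and GRCm39, the mouse build. How cells were filtered, doublets handled, batches integrated and types named is not stated in the sources used here, and each step shapes the values. The deposited UMAP coordinates are scores without a unit, and distance in UMAP is not distance in expression.

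The 4 tables were joined by cell identifier. Shares, delta-method log2 ratios, territories and neighbour shares were computed with Python 3.11.15, numpy 2.4.6 and scipy 1.17.1 and tested on simulated data. Positions needed at least 15 cells per library, territories 40 control cells and log2 ratios 20 cells. All 8 types and 14 clusters were accounted for, so no rule for named features was needed. No cluster held more than 1 type (0 exceptions). The comparison, features and measures were chosen with earlier results of these data known. Alternatives were other neighbour numbers, percentiles, denominators and centres, and leaving out cluster 9. Leaving out shared barcodes, the thinned references and the occupancy of territories were added after the data were seen.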

Additional observations from a re-analysis of the deposited data

How the results depend on the processing

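The share of cKO beta cells outside the control territory was 31.7% with the 1st nearest control cell, 52.6% and 11.7% with the 90th and 99th percentile as the limit, and 31.7% without cluster 9; the level follows from the limit itself, and under each setting it was above the 5 non-beta types other than neurons. Their highest shares were 17.9% (immune cells) with the 1st nearest cell and 23.9% (immune cells) with the 90th percentile. The balanced own-library share of beta cells was 77.5% without cluster 9 and 67.1% among cells of the same cluster, the latter below the 67.8% of immune cells. The scaled beta shift was 0.54 from means, 0.70 with the cKO spread and 0.76 without cluster 9. The clusters called lower numbered 5 instead of 10 without cluster 9. The clusters called higher numbered 2 instead of 3 without cluster 9. In the other alternatives of these results, the beta share outside stayed within the 95% counting interval of the reported value, at 42.5 to 42.6%. The own-library neighbour share of beta cells, which is not a count of cells and has no counting interval, was 78.8 to 79.7%. The scaled shift was 0.57 without shared barcodes, the counts of clusters did not change, and the log2 ratios of the non-beta shares kept their sign and whether their interval included 0. No paired analysis was possible because each side had 1 library, and for the same reason no replicate could be left out. Cell numbers limit the small types: 15 endothelial, 21 neuron and 33 PP cells in the cKO library.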
